A study of Homo sapiens with 5 samples.

Results

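The RAB genes encode the RAB small GTPases, and they were examined for FOXO3A peaks at their gene starts and ends in 2 human leukemia cell lines. Members were the protein-coding genes of the RefSeq table for hg38 whose symbol is RAB followed by a number and at most 1 letter. That pattern matched 63 of 19866 protein-coding genes, of which 1 is not reported here, leaving 62. Genes that encode partners of RAB proteins are not members and are counted separately. The members were taken by name, not by their peaks, but the family was chosen with earlier results of these data known.

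FOXO3A is a forkhead transcription factor that acts in the nucleus when AKT signalling is low. It was mapped by CUT&Tag, in which an antibody brings a transposase to chromatin so that the DNA around the target is cut and tagged. Libraries came from THP-1 (3 libraries) and U-937 (2 libraries), established lines with monocytic features that the labels class as acute myeloid leukemia cells. All libraries used the same FOXO3A antibody. The labels name no treatment and no genotype change in either line, and no control library was used here. THP-1 replicate 1 held 1282 peaks (1037 on the chromosomes) and U-937 replicate 1 held 2272, whereas the other 3 libraries held 0. The values below therefore rest on 1 library per line and have no replicate check. Read depth is unknown, and as binding alone was measured the labelled cell type was not checked against marker genes.

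RAB proteins switch between a GTP-bound form that sits on membranes and a GDP-bound form that is kept soluble. Each type marks particular compartments and recruits effectors that move, tether or fuse vesicles there. Exchange factors load them with GTP, GTPase-activating proteins switch them off, and escort and dissociation factors carry their lipid anchor through the cytosol. In monocytes and macrophages they direct phagosome maturation, receptor recycling and secretion.

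In U-937, 9 of the 62 RAB genes had a peak summit within 1000 bp of their start or end (14.5%, exact 95% interval 6.86 to 25.8). Of all protein-coding genes, 7.02% had one. The lower end of the RAB interval lies just under that background, and the interval covers counting error only. The 9 genes were RAB3A, RAB5B, RAB6A, RAB10, RAB11A, RAB11B, RAB18, RAB28 and RAB40C. In THP-1, 0 of 62 RAB genes had such a peak, against 0.221% of all protein-coding genes. A limit of 3 counts allows a share of up to 4.84%, and the exact 95% interval reaches 5.78%. At that background 0.137 of 62 genes would carry a peak, so the THP-1 list could not show a lower share in a set of this size. No RAB gene had a peak in both lists, and none of the 9 U-937 peaks overlapped a THP-1 peak. Only 0.221% of all protein-coding genes had a THP-1 peak, so few genes of any kind could have a peak in both. The share of all genes with a peak in both lists was not counted.

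The sequences before the starts of RAB11B, RAB3A, RAB28, RAB5B and RAB6A are shown. They were chosen because the U-937 summit fell inside them and before the start of the gene span. Each run holds the 250 bases before the start, 5′ to 3′ on the gene's own strand, from the RefSeq promoter table (GRCh38.p14). Capitals mark the summit base with 5 bases on each side.
RAB11B: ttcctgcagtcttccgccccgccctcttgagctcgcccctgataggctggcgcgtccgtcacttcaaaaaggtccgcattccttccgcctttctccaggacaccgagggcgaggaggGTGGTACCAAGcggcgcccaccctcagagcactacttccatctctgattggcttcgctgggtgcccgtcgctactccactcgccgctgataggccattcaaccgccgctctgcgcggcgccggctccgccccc
RAB3A: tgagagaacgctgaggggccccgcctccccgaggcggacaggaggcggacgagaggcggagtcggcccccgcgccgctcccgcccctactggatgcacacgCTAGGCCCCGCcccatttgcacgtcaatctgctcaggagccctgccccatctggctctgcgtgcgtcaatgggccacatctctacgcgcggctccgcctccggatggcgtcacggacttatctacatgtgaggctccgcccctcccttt
RAB28: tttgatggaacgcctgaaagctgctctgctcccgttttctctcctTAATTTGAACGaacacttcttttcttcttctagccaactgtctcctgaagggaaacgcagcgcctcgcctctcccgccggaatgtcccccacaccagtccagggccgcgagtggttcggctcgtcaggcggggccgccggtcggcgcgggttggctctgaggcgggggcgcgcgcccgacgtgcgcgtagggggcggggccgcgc
RAB5B: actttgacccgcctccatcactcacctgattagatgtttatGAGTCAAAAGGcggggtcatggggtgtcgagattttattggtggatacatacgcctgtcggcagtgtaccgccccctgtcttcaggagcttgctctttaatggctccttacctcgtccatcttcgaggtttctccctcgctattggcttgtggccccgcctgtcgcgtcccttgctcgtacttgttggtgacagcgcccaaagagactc
RAB6A: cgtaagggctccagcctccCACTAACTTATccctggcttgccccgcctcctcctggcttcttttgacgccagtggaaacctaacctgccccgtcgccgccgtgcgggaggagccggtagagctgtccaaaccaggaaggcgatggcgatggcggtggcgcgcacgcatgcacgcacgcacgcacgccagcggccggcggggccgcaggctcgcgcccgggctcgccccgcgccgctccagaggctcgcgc
The RAB11B run is at chr19:8390110-8390359 on the plus strand, and the RAB3A run at chr19:18204043-18204292 on the minus strand. The RAB28 run is at chr4:13484341-13484590 on the minus strand. The RAB5B run is at chr12:55973699-55973948 on the plus strand, and the RAB6A run at chr11:73761075-73761324 on the minus strand. The authors' peak covered all 250 of these bases at RAB5B, 193 at RAB11B, 148 at RAB3A, 145 at RAB28 and 100 at RAB6A.

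All 9 summits lay nearer to the start than to the end of their RAB gene. Among the 1202 protein-coding genes with a U-937 peak and a listed strand, 95.5% did, so the position at starts is common to the list. The promoter table can list several starts for a gene. Measured to the nearest listed start, all 9 RAB summits lay within 250 bp, at 10 to 226 bp with a median of 144 bp. Of the 1202 genes, 66.4% had the summit within 250 bp, and the median distance was 190 bp. The summit lay upstream of the nearest listed start in 6 of the 9 RAB genes, against 76.0% of the 1202. The gene table gives spans without exons, so exon, intron and UTR were not assigned.

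**Figure D1:**
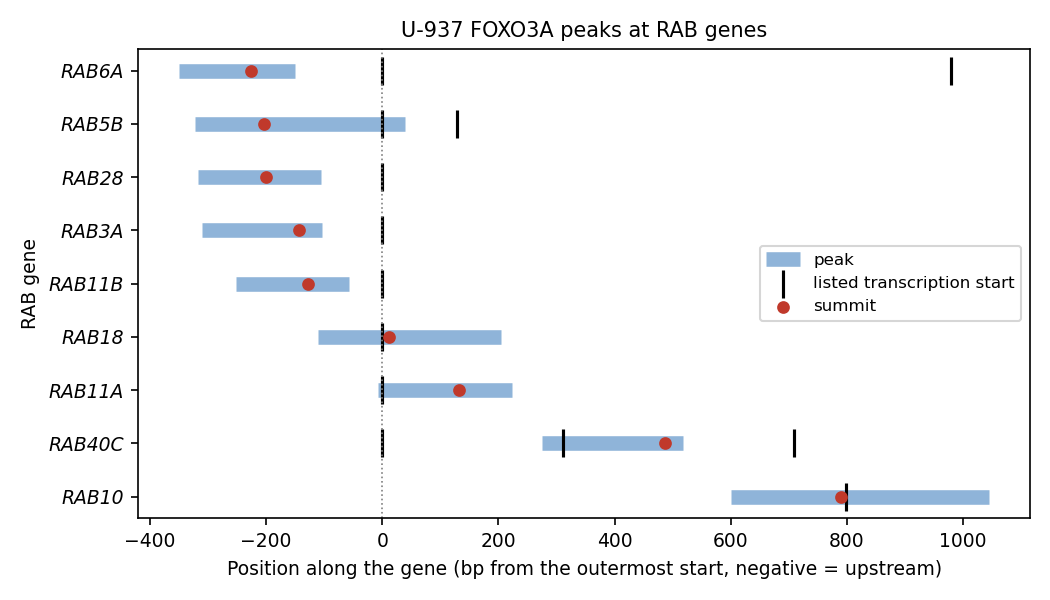
The 9 U-937 peaks at RAB genes, with position in bp along each gene from its outermost start on the x axis and the gene on the y axis. Bars span the authors' peaks, points are summits and ticks are starts listed by RefSeq. 5 summits lie 128 to 226 bp upstream of the outermost start. Those of RAB10 and RAB40C lie inside the gene span, 10 bp from the listed start of RAB10 and 175 bp from another listed start of RAB40C. For RAB10 the x axis begins at the start of the gene span, which is not a listed start.

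The recycling and surface delivery genes held 3 of the 9 peaks, among 11 members. Counts by role, here and below, rest on few genes. They were not tested against the 7.02% of all protein-coding genes with a peak. RAB11A and RAB11B, closely related proteins that mark the recycling endosome, each had one. The RAB11A peak, at chr15:65869484-65869714, reached a fold enrichment of 7.94 and a -log10 q of 7.54, with the summit 133 bp inside the gene. Fold enrichment and q are the authors' values for each peak, and the sources used here do not name the background behind the fold. The RAB11B peak, at chr19:8390108-8390302, had a fold of 6.15 and a -log10 q of 4.52, with the summit 128 bp upstream. The summits at these 2 paralogs thus lay on opposite sides of their starts. The RAB11A peak was the stronger, and it spanned the start of its gene. Of the 13 RAB numbers shared by more than 1 member, RAB11 was the 1 with a peak at more than 1 gene.

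RAB10, which drives delivery of vesicles to the plasma membrane, had its peak at chr2:26033885-26034330, the widest of the 9 at 446 bp. Its fold was 6.88 and its -log10 q 5.80. The summit lay 789 bp inside the gene span (chr2:26033285-26137454) but 10 bp upstream of the start that the promoter table lists. It was the member closest to the 1000 bp limit from inside. The other 8 genes of this role, RAB8B, RAB12, RAB13, RAB14, RAB15, RAB17, RAB25 and RAB35, had no summit within 1000 bp. The nearest U-937 summits to these were 14.8 kb from RAB15, 32.0 kb from RAB8B and 43.9 kb from RAB25.

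Of the 8 early endosome genes, RAB5B carried a peak. RAB5 proteins control fusion of endocytic vesicles with early endosomes. The RAB5B peak, at chr12:55973626-55973989, was the strongest of the 9, with a fold of 8.37, a -log10 q of 8.32 and a summit 204 bp upstream of the start. The same summit lay 956 bp from the end of CDK2, a cell cycle kinase gene, which made RAB5B the 1 RAB gene of the 9 to share its peak with another protein-coding gene. Its paralogs had no summit within 1000 bp, the nearest being 1434.8 kb from RAB5A and 39.4 kb from RAB5C. RAB4A, RAB21, RAB22A and RAB31 were at 202.5 kb, 90.7 kb, 283.5 kb and 373.6 kb. RAB4B, a rapid recycling gene, had a summit 2073 bp beyond its end, in a peak (fold 7.91) whose summit was 176 bp from the neighbouring gene EGLN2.

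Of the 14 ER and Golgi genes, RAB6A and RAB18 carried peaks. RAB6A, which acts in retrograde traffic through the Golgi, had a peak at chr11:73761225-73761424 with a fold of 6.06 and a -log10 q of 5.09, its summit 226 bp upstream. RAB18, linked to the ER and to lipid droplets, had a peak at chr10:27504193-27504509 with a fold of 5.11 and a -log10 q of 3.46. Measured to the start of the gene span, the RAB18 summit was the closest of the 9, 11 bp inside, and the peak spanned that start. RAB2B had a summit 2755 bp beyond its end, 142 bp from CHD8 (fold 6.59). RAB33A had a peak within its span that lay 178 bp from AIFM1, a gene for a mitochondrial flavoprotein (fold 5.31). RAB1A, RAB1B, RAB2A, RAB6B, RAB6C, RAB19, RAB30, RAB33B, RAB41 and RAB43 had no peak nearer than the 68.3 kb of RAB1A, and RAB33B was the farthest of all 62 at 5210.9 kb.

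Of the 9 regulated secretion genes, RAB3A carried a peak. RAB3A is known for control of synaptic vesicle release. Its peak, at chr19:18204145-18204353, had a fold of 6.68 and a -log10 q of 5.42, with the summit 144 bp upstream. RAB3D, a gene of secretory granules, had a peak within its body, 15434 bp past the start and 2155 bp from the other end (fold 5.51, -log10 q 3.50). RAB37 also had a peak within its body, 19715 bp from the nearer end (fold 4.72, -log10 q 2.57). RAB3B was at 29.1 kb, and RAB3C, RAB26, RAB27A, RAB27B and RAB44 were at 89.4 kb or more.

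RAB28, 1 of 2 members assigned to the cilium, had a peak at chr4:13484446-13484658 with a fold of 5.87, a -log10 q of 4.53 and a summit 200 bp upstream. The other, RAB23, was 1991.3 kb from the nearest summit. RAB40C, which has a SOCS box and works with a ubiquitin ligase, was 1 of 3 members of its kind with a peak. That peak, at chr16:589632-589874, was the weakest of the 9, with a fold of 4.98 and a -log10 q of 2.75. Its summit lay 487 bp inside the gene span and 175 bp past another listed start. RAB40A and RAB40B were at 2085.2 kb and 160.2 kb.

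No late endosome, lysosome, autophagy or phagosome member carried a peak in U-937. These were RAB7A, RAB7B, RAB9A, RAB9B, RAB20, RAB24, RAB29, RAB32, RAB34, RAB36, RAB38, RAB39A, RAB39B and RAB42. The nearest summit was 9.0 kb from RAB7B, 18.4 kb from RAB29 and 46.7 kb from RAB42. RAB7A, the main RAB of late endosomes and lysosomes, was 625.4 kb from the nearest summit, and RAB20, a phagosome gene, 151.4 kb. A count of 0 among 14 genes is small beside a background of 7.02%, so no difference from the other roles can be read from it. RAB6D, assigned to no role, was at 495.3 kb.

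The peaks at RAB genes had middling strength within the U-937 list. Their fold ran from 4.98 to 8.37 with a median of 6.15, and the 1110 peaks at starts or ends of protein-coding genes ran from 2.89 to 15.3 with a median of 6.59. By fold, RAB5B stood at the 77.4th percentile of those 1110 peaks, RAB11A at the 71.0th, and RAB40C at the 18.6th. Of the 9 RAB peaks, 4 were above the median fold, and 5 had a -log10 q of at least 5 (55.6%, against 55.1% of the 1110). Their width was 195 to 446 bp with a median of 231 bp, against 252 bp. With those 5 peaks alone, the RAB genes were RAB3A, RAB5B, RAB6A, RAB10 and RAB11A, or 8.06% of 62 against 3.93% of all genes.

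**Figure D2:**
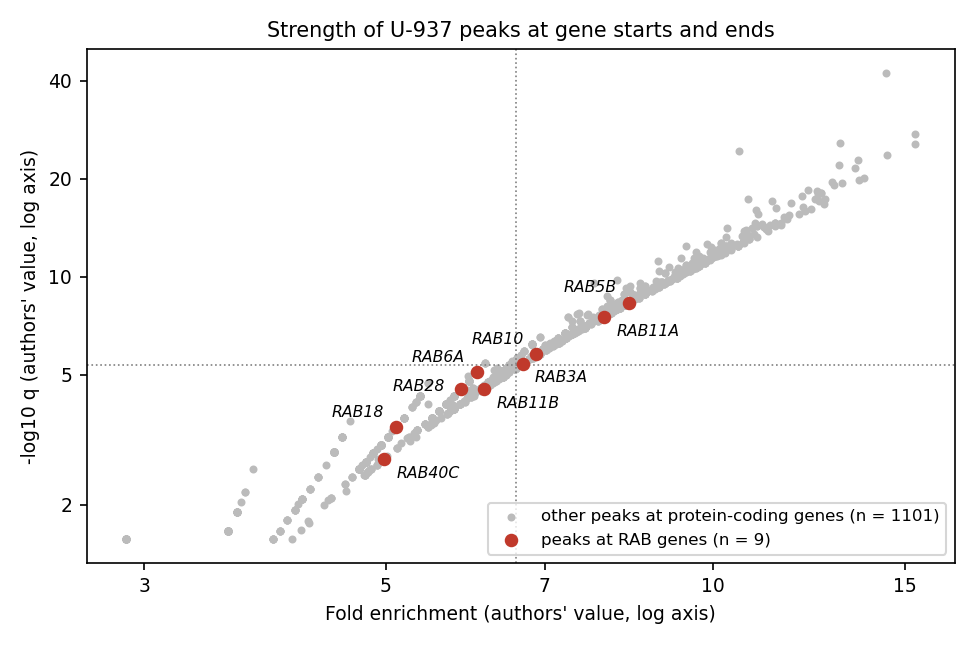
Fold enrichment (x axis) against -log10 q (y axis), both the authors' values on log axes, for U-937 peaks within 1000 bp of a protein-coding start or end. Red points are the 9 peaks at RAB genes, grey points the other peaks, and dotted lines the medians of all 1110. The RAB peaks lie along the middle of the cloud, from RAB40C (fold 4.98) to RAB5B (fold 8.37).

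Beyond the window, 3 more members, RAB2B, RAB3D and RAB4B, had a summit over 1000 and up to 3000 bp away, which raised the count to 12 of 62 (19.4%, against 8.22% of all protein-coding genes). The gap between the last member inside the 1000 bp window, RAB10 at 789 bp, and the first outside, RAB4B at 2073 bp, held no other RAB gene. A further member lay at 3000 to 10000 bp, 9 at 10000 to 50000 bp, and 40 (64.5%) farther, against 76.5% of all genes. The median distance from a RAB gene to the nearest U-937 summit was 156 kb, against 226 kb over all protein-coding genes. In THP-1 the median was 2140 kb, against 2390 kb, and the nearest summits were 19.7 kb from RAB6D, 68.6 kb from RAB40B and 94.5 kb from RAB40C.

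**Figure D3:**
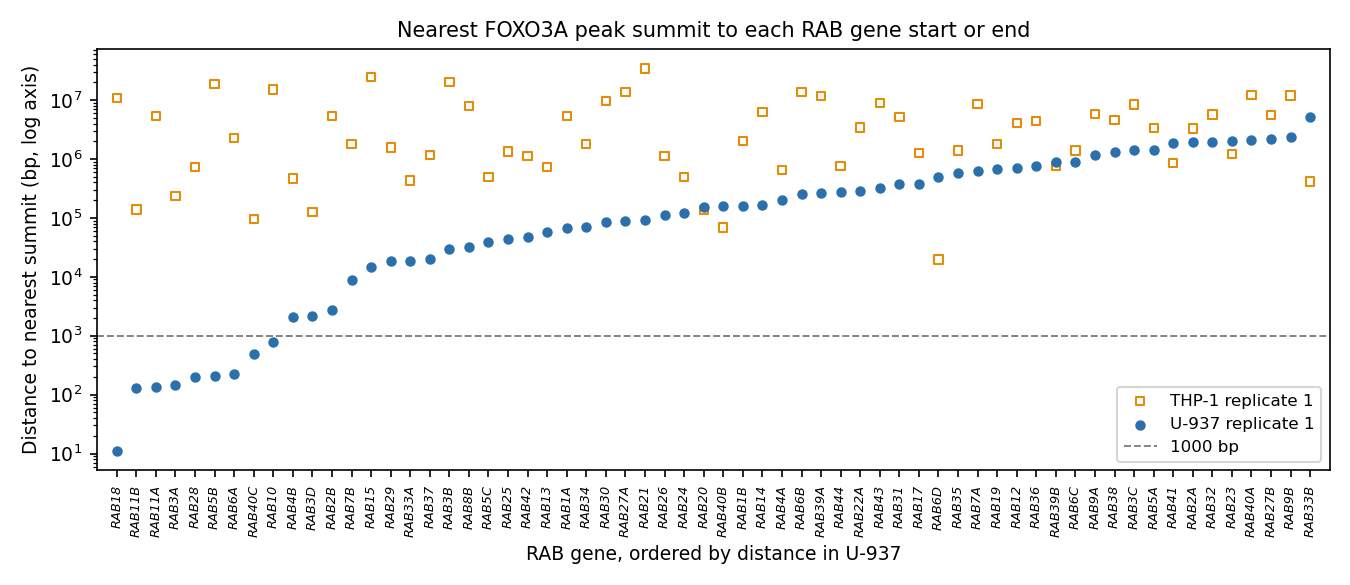
Distance in bp on a log axis from the start or end of each of the 62 RAB genes to the nearest summit, with genes on the x axis ordered by their distance in U-937. Filled circles are U-937 replicate 1, open squares THP-1 replicate 1, and the dashed line marks 1000 bp. The 9 U-937 points under the line run from 11 to 789 bp, and no THP-1 point is nearer than 19.7 kb.

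Chromosome 19 held 4 of the members, and all 4 had a U-937 summit within 3000 bp. Of these, RAB3A and RAB11B were within 1000 bp, and RAB3D and RAB4B were not. Of the 1410 protein-coding genes on that chromosome, 13.1% had a summit within 1000 bp and 16.7% within 3000 bp, so a larger share of genes had a peak there than over all chromosomes. The part of the chromosome in the RAB counts was not tested.

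Most RAB peaks stood beside a long noncoding RNA gene. For 6 of the 9, the summit was also within 1000 bp of an end of a lncRNA gene (66.7%), against 21.5% of the 1110 peaks at protein-coding genes. The 6 RAB genes were RAB3A, RAB6A, RAB10, RAB11B, RAB18 and RAB28, and the neighbour at RAB11B is the antisense gene RAB11B-AS1, 459 bp from the summit. The distances ran from 91 bp at RAB28 to 544 bp at RAB3A. Measured from the gene and not from a peak, 14 of the 53 RAB genes without a peak (26.4%) had a lncRNA end within 1000 bp, against 17.0% of all protein-coding genes. Of the 9 peaks, 1 (11.1%) was within 1000 bp of a second protein-coding gene, against 26.2% of the 1110. With so few peaks, no difference can be read from that count. No other U-937 peak lay within 10000 bp of any of the 9, but this was not counted for the 1110. The lncRNA genes start or end close enough to the RAB starts that a peak cannot be assigned to one gene of such a pair.

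Base composition of the RAB promoters with a peak was close to that of other promoters with one. The promoter table held 49 of the 62 members, including all 9 with a peak, and the window runs from 250 bases before to 50 after the outermost listed start. Over the 9, GC content ran from 54.0% at RAB5B to 74.7% at RAB40C, with a median of 66.7%. The median was 63.7% in the 40 RAB promoters without a peak, 64.0% in the 1202 promoters of protein-coding genes with one, and 62.7% in all 15843. The observed to expected ratio of CpG, which is near 1 where CpG is not depleted, had a median of 0.917 in the 9, 0.809 in the 40, 0.852 in the 1202 and 0.761 in all.

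Short motifs were searched in the same windows on both strands, as exact letters, and no motif contains the letters of another. The window is not the peak. The RAB40C peak began 275 bp past the outermost start and lay wholly outside the window, as did the RAB11A summit at 133 bp. The forkhead motif GTAAACA, the site favoured by FOXO proteins, was in 0 of the 9 RAB promoters with a peak and 0 of the 40 without, against 1.66% of the 1202 and 2.67% of all 15843. At so low a share over all promoters, no lack of the motif can be read from these counts of 0. The GC box GGGCGG, bound by SP factors, was in 8 of the 9 (all but RAB6A), 30 of the 40, 72.5% of the 1202 and 58.3% of all. In the sequences above it appears as its reverse complement, CCGCCC, in the RAB3A, RAB11B and RAB5B runs, and as GGGCGG in the RAB28 run. The copy nearest to a summit is in the RAB3A run, starting 142 bases before the start, where the summit lies 144 bases before it. All other copies in these runs, including those at RAB3A, lie farther from the summit of their gene. The ETS core CCGGAA was in 4 of the 9 (RAB11A, RAB11B, RAB18 and RAB28), 11 of the 40, 29.7% of the 1202 and 22.7% of all. The CCAAT motif was in 3 of the 9 (RAB5B, RAB11B and RAB40C), 9 of the 40, 50.4% of the 1202 and 36.4% of all. The NRF1 core GCATGCG was in 2 of the 9 (RAB6A and RAB18), 1 of the 40 (RAB23), 7.65% of the 1202 and 5.16% of all, and at RAB18 it starts 16 bases before the gene's start. The E-box CACGTG was in 0 of the 9, 6 of the 40, 10.7% of the 1202 and 8.82% of all. The CRE TGACGTCA was in 0 of the 9, 1 of the 40, 2.75% of the 1202 and 2.56% of all. The TATA motif TATAAA was in 0 of the 9, 4 of the 40, 5.07% of the 1202 and 9.75% of all. A match describes these letters in this window and is not a bound site.

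Genes for the proteins that act on RABs carried U-937 peaks at about the background. Of 135 regulators and effectors, 10 had a peak (7.41%, exact 95% interval 3.61 to 13.2, against 7.02% of all genes). Exchange factors had 4 of 46, TRAPPC6A (fold 11.8), DENND4A (fold 9.45), RIC1 (fold 7.76) and RABGEF1 (fold 4.48). RABGEF1 activates RAB5, RIC1 acts on RAB6, DENND4A on RAB10, and TRAPPC6A is a subunit of the TRAPP complex that acts on RAB1. GTPase-activating proteins had 3 of 32, TBC1D10B (fold 12.9), EVI5L (fold 10.2) and TBC1D17 (fold 4.78). Effectors had 2 of 49, the golgin gene GOLGA5 (fold 6.40) and RAB11FIP1 (fold 5.25), whose product binds RAB11. Of 8 genes for prenylation, escort and recycling, RABIF had a peak (fold 7.31), while the GDI and escort protein genes did not. None of the 135 had a THP-1 peak at a start or end.

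The ARF and ARL genes, another family of small GTPases that act on membranes, served as the nearest comparison. Among 27 of them, ARF4 (fold 10.6) and ARL3 (fold 7.06) had a peak (7.41%, exact 95% interval 0.91 to 24.3), against 14.5% for the RAB genes, and the intervals overlap. Both peaks were stronger by fold than 7 or more of the 9 RAB peaks.

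**Figure D4:**
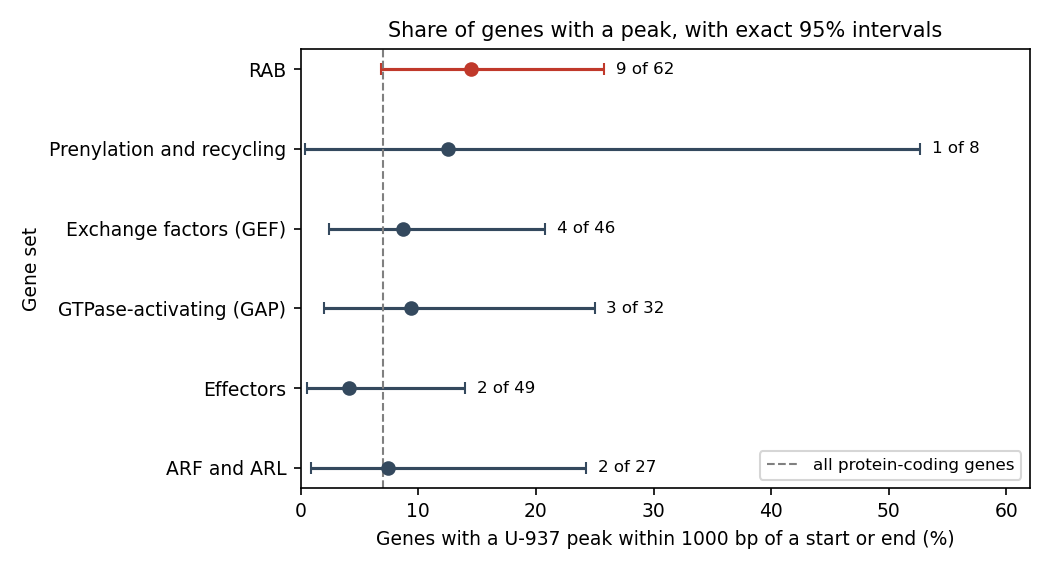
Percentage of genes with a U-937 summit within 1000 bp of a start or end (x axis) for the RAB genes, 4 lists of regulators and effectors, and the ARF and ARL family (y axis). Points are shares, bars exact 95% intervals for counting error, and the dashed line is the 7.02% of all protein-coding genes. RAB has the highest share at 14.5%, and every interval reaches the dashed line.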

How the data were processed

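FOXO3A CUT&Tag peaks of THP-1 and U-937 cells were used. The submitters' processing notes name Bowtie2, Picard and build hg38. For versions, the peak caller and its background, nothing is given in the sources used here. The authors deposited 1 peak list per library, without a header, read as narrowPeak. The values deposited by the authors for each peak are a whole-number score, a linear ratio called fold enrichment, and -log10 of its p-value and q-value. Depth is unknown.

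Only peaks on the numbered chromosomes, X and Y were kept. Gene spans came from RefSeq (GRCh38.p14). Of its 59792 genes, 831 outside the ordered chromosomes were left out. A gene was counted where a summit lay within 1000 bp of its start or end. Strand and promoter sequences came from the RefSeq promoter table. Shares have exact Clopper-Pearson 95% intervals for counting error only. No test between genes was run, because each line has 1 library with peaks. The counting was tested on simulated peaks. Python 3.11.15, pandas 2.3.3 and scipy 1.17.1 were used.

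The members, roles and lists were chosen with earlier results of these data known, the motifs after the peaks were seen. In the lists of regulators and effectors, 1 symbol was an older name of another entry and was dropped. The rule for named genes took every RAB gene with a summit within 3000 bp or in its body, and up to 6 regulators or effectors per role. Alternatives covered the window, the q threshold, peak overlap, starts only and the nearest gene. A further gene family planned for comparison is not reported here.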

Additional observations from a re-analysis of the deposited data

How the results depend on the processing

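The U-937 count of 9 RAB genes stayed at 8 to 12 with a window of 500 or 3000 bp, any overlap of the peak with the window, gene starts only, the nearest protein-coding gene only, and the nearest gene within 50000 bp. With a -log10 q of at least 5 it was 5. The lower end of the exact interval was above the share of all genes with the 3000 bp window (10.4% against 8.22%). It was also above with the nearest gene only (6.86% against 5.61%). With starts only it was 8.76% against 7.25%, counted over 49 members and the other genes in the promoter table. In the other cases it lay below. The intervals cover counting error only, in 1 library, and these comparisons are not a test. The THP-1 count of 0 became 1 (RAB6D) with the nearest gene within 50000 bp, and was 0 in the other 6 alternatives. The count in both lines was 0 in all 5 alternatives tried. The 10 regulators and effectors became 16 with the nearest gene within 50000 bp. The 2 ARF and ARL genes became 1 with gene starts only, 1 with the nearest gene only and 1 with the nearest gene within 50000 bp. Leaving out a library gave no value, as each line has 1 library with peaks. No paired analysis was possible because replicate 2 of both lines held no peaks. Read depth is unknown, so the depth behind a missing peak cannot be stated.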
